A study of Mus musculus with 13 samples.

Results

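The 10 transcription factor genes described here, Tfap2a, Tfap2b, Irx1, Irx2, Irx3, Pou3f3, Mecom, Prdm16, Sim1 and Sim2, were chosen by name as regulators associated with the distal nephron, out of 55450 annotated genes. Their chromatin was followed through 433 of the 300755 accessible regions, or peaks, in the deposited matrix. Of these, 287 peaks lay in a gene's window, its body plus 2 kb upstream, and 146 were distal peaks within 50 kb of that window. The data came from single nucleus ATAC-seq of whole mouse kidneys, in which the transposase Tn5 cuts open chromatin in single nuclei. There were 2 kidney samples from newborn mice (P0, 1 day old by the extraction protocol), 1 from 3-week-old mice (P21) and 2 from 8-week-old mice (P56), and the P21 and P56 samples, from perfused animals, formed the adult group of 3. The study's methods name the C57BL/6 strain for the mice of its single cell RNA sequencing and no strain for these nuclei, and the labels give no genotype or treatment that differed between the samples. The labels do not say which animals the samples came from, so the spread between these samples may be technical. P-values between stages inside a cell cluster rest on that spread. P-values between clusters, and for stage-dependent differences between them, come from joint fits over the clusters that set aside each sample's own level. They rest on how cluster differences varied between samples, pooled over the clusters fitted, and not on the spread between whole samples.

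The matrix held 28316 nuclei, 3361 to 7129 per sample, with a median of 3371 to 6737 open peaks per nucleus. The submitters' 13 main cell clusters were used, and 664 nuclei of minor clusters were left out. How doublets were treated is not given in the sources used here, and no doublet caller was run. The sums per cluster and sample held 39 to 2459 nuclei, and 477 cell barcodes occurred in more than 1 sample. Marker windows led in their own cluster for 35 of 39 markers at P0 and 33 of 39 in the adult. At P0 none of the 3 connecting tubule (CNT) markers led in the CNT cluster, where the distal convoluted tubule (DCT) cluster was higher, so comparisons that contain this cluster at P0 rest on its deposited name. The adult nephron progenitor (NP) cluster, of 52 to 90 nuclei, went against its label, since 1 of 4 NP markers led there. No test described in detail below contrasts it. Its sums stayed in the joint fits behind the adult cluster tests and the tests of stage-dependent differences, and it stands in the descriptions over all 13 clusters.

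A nephron filters blood in the glomerulus and modifies the filtrate along the proximal convoluted (PCT) and straight (PST) tubule, the loop of Henle (LOH), the DCT and the CNT before it reaches the principal (PC) and intercalated (IC) cells of the collecting duct. Transcription factors set the gene programme of each segment as progenitors differentiate, and the open chromatin at and around a factor's own gene can mark the segments where that gene may be transcribed. AP-2 factors (Tfap2a, Tfap2b) act in epithelial and neural crest development, and Tfap2b is needed for distal convoluted tubule maturation. Iroquois homeobox factors (Irx1, Irx2, Irx3) pattern the intermediate part of the developing vertebrate nephron. Pou3f3, also called Brn1, is a POU homeobox factor needed for the loop of Henle to form. Mecom and Prdm16 are related zinc finger proteins of the PRDM family that modify chromatin, and Sim1 and Sim2 are basic helix-loop-helix PAS factors that bind DNA with ARNT.

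In mm10 the genes lay at chr13:40715302-40738376 (Tfap2a), chr1:19208914-19238576 (Tfap2b), chr13:71957921-71963723 (Irx1), chr13:72628820-72634198 (Irx2), chr8:91798525-91802067 (Irx3), chr1:42695768-42703176 (Pou3f3), chr3:29951296-30548008 (Mecom), chr4:154316125-154636873 (Prdm16), chr10:50894754-50989152 (Sim1) and chr16:94084931-94127032 (Sim2). Mecom and Prdm16 are long and held most of the peaks, 146 and 89 in their windows and 11 and 22 around them. The other 8 windows held 1 peak (Irx3) to 13 peaks (Sim1). Some peaks overlapped a neighbouring gene (Arhgef16 and B230104I21Rik at Prdm16, Hlcs at Sim2, the long non-coding RNA gene AC122898.1 at Pou3f3), and the assay has no strand, so such a peak cannot be assigned to either gene.

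Of the 433 peaks, 5 away from a gene start were picked as examples, not by a single ranking. The central 300 bases of each are printed 5′ to 3′ on the plus strand of GRCm38.p6 (mm10), with motif matches in capitals. The Prdm16 peak led the distal-higher calls at both stages. Its centre is chr4:154671574-154671873, upstream of the gene in no other annotated gene:
Prdm16 upstream: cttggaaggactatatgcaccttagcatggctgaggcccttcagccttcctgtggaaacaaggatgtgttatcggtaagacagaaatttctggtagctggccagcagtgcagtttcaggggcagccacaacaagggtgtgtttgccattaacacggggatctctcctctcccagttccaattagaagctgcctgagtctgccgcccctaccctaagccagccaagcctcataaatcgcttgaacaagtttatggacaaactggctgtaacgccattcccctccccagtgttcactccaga
The Irx3 peak led the proximal-higher adult calls. Its centre is chr8:91755473-91755772, downstream of Irx3 and intergenic:
Irx3 downstream: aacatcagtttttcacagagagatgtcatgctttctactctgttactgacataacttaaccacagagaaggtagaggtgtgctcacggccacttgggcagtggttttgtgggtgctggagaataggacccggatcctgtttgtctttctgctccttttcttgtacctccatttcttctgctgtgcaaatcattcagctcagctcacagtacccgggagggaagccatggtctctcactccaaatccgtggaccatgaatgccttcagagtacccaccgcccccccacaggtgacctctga
The Pou3f3 peak separated loop of Henle from progenitor nuclei. Its centre is chr1:42742055-42742354, downstream of Pou3f3 and within AC122898.1:
Pou3f3 downstream: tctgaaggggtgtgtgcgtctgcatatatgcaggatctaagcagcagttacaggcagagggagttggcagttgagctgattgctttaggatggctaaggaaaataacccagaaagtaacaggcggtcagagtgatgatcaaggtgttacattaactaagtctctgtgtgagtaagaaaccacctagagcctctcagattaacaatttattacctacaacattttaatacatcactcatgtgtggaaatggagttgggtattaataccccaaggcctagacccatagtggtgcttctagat
Tfap2b had an intronic peak (centre chr1:19211057-19211356) and an intergenic one downstream (centre chr1:19245070-19245369), both with an AP-2 motif, GCCNNNGGC, in capitals, and the intronic one also with the core SIM/ARNT motif, ACGTG:
Tfap2b intron: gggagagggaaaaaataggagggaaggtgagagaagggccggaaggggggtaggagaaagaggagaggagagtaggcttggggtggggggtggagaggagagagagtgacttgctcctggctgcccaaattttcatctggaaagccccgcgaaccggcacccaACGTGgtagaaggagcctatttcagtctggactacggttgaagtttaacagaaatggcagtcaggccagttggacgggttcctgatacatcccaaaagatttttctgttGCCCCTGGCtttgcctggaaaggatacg
Tfap2b downstream: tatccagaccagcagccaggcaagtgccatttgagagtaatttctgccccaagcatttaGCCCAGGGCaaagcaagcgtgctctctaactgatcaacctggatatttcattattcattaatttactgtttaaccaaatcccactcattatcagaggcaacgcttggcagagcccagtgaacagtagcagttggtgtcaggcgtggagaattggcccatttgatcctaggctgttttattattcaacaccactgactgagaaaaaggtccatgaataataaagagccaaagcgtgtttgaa

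The level of a gene's window is given below as its open calls (a peak scored open in a nucleus) per 1000000 open calls of that cluster and sample, and levels are compared between clusters and not between genes. Along the nephron the factors differed in the clusters where they were most open. Tfap2a, Tfap2b, Mecom and Prdm16 were open throughout the distal segments and low in the proximal tubule. Mecom was broad at P0, where its highest cluster, the DCT, stood at 1.21 times the median cluster. Its mean in the Stroma1 cluster, of stromal cells, lay above that in the PC there. Prdm16 was led at P0 by the PC (500 ± 15.6, SD, n = 2), ahead of the CNT. Irx1, Irx2 and Sim2 stood out in the LOH among the distal clusters, and Irx1 and Irx2 were open in the PST as well. Irx3 was highest in endothelium (Endo) and open across the proximal tubule, while Pou3f3 and Sim1 were open in distal clusters and the PST.

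**Figure D1:**
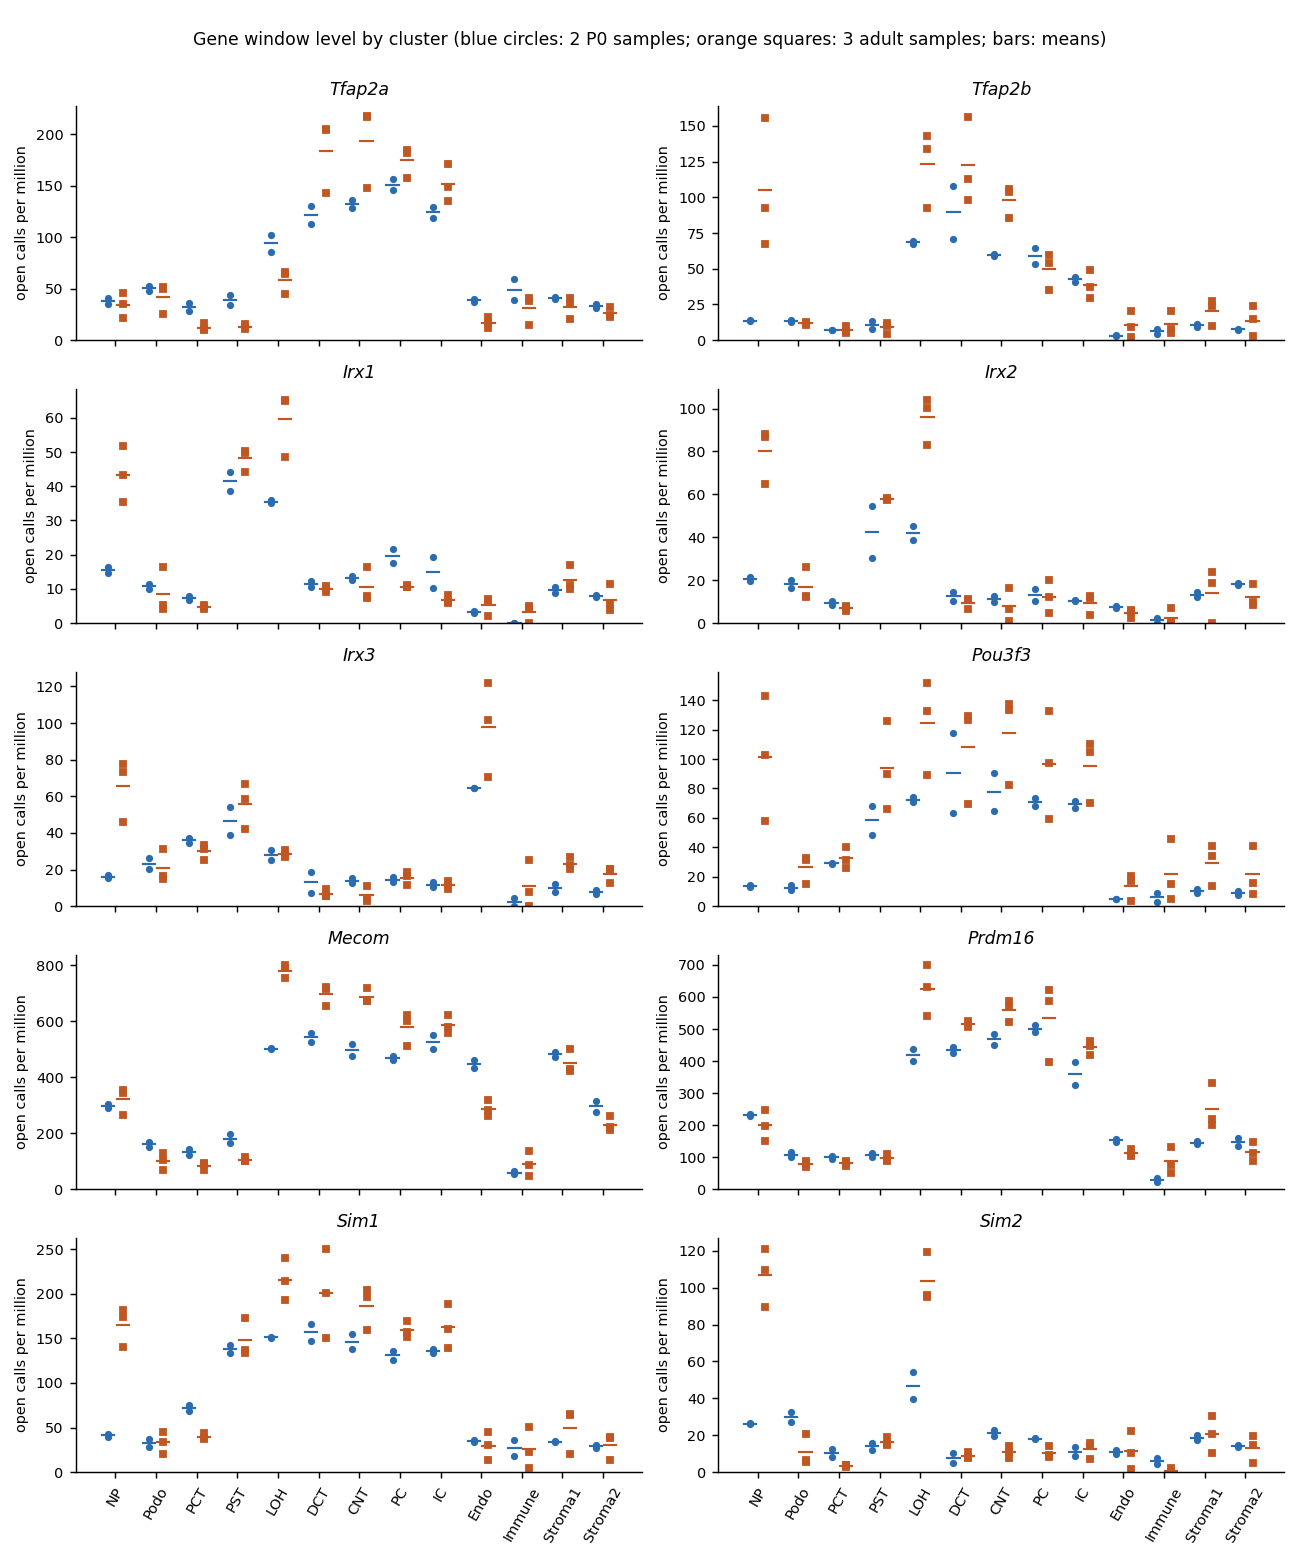
Open calls in each gene's window per 1000000 open calls (y axis, linear) in the 13 clusters (x axis), with a point per sample (blue circles, 2 P0 samples; orange squares, 3 adult samples) and bars at the group means. Tfap2a, Tfap2b, Mecom and Prdm16 sit high over LOH, DCT and CNT and low over PCT and PST in all 5 samples, whereas Irx1 and Irx2 are higher in LOH and PST than in the other tubule and duct clusters.

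The first comparison asked how the windows and peaks differ between the distal tubule (the mean of LOH, DCT and CNT) and the proximal tubule (the mean of PCT and PST), with edgeR's quasi-likelihood test on summed counts and sample as a block. The nuclei were clustered by the submitters on the same accessibility data, so p-values between clusters serve to rank features. The study had already named Tfap2a, Tfap2b, Mecom and Prdm16 for nearby peaks that marked the loop of Henle and DCT branch in these data. The distal counts of the 10 genes are thus no independent test. At P0, 6 of the 10 windows were distal-higher and 1 proximal-higher, against 17.2% and 21.9% of all 29375 gene windows tested. In the adult, 7 were distal-higher and 1 proximal-higher, against 33.5% and 33.7% of 22925. The median log2 fold change of the 10 was 0.68 at P0 and 1.24 in the adult, beside 0.00 and 0.02 over all windows.

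Tfap2b, the AP-2 factor of the distal convoluted tubule, had the largest distal excess of the 10 at both stages, a log2 fold change of 2.88 ± 0.16 (SE; adjusted p = 1.32e-45) at P0 and 3.58 ± 0.15 (adjusted p = 7.94e-24) in the adult. Its LOH level was 69.4 and 67.7 at P0 and 143, 92.6 and 134 in the adult (here and below in the order P21, P56 replicate 1, P56 replicate 2). In the PCT it was 7.42 and 7.47 at P0 and 9.75, 5.30 and 6.31 in the adult. The LOH, DCT and CNT levels lay above every PCT and PST level at both stages. At P0 the DCT led in both samples (89.6 ± 26.1, SD, n = 2), ahead of the LOH, and in the adult the LOH and DCT means, 123 ± 26.8 and 122 ± 30.3 (SD, n = 3), did not differ beyond their spread.

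Tfap2a was most open in the PC at P0, ahead of the CNT, and in the adult the CNT, DCT and PC levels overlapped at the top. Its PC level was 146 and 156 at P0 and 182, 157 and 185 in the adult. CNT values were 137 and 128 at P0 and 218, 148 and 217 in the adult. The LOH stood lower, at 103 and 85.3 at P0 and 65.9, 45.1 and 64.6 in the adult, and the PCT lowest, at 36.6 and 28.7, then 16.5, 9.67 and 10.6. The log2 excess of distal over proximal windows was 1.55 ± 0.10 (adjusted p = 6.31e-35) at P0 and 3.11 ± 0.09 (adjusted p = 1.19e-28) in the adult. The order of PC and CNT at P0, for Tfap2a and for Prdm16, rests on the deposited cluster names. PC markers summed over their windows were 88.8 and 102 in the CNT cluster at P0 and 72.8 and 90.4 in the PC cluster, though 2 of the 3 led in the PC.

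Mecom and Prdm16, the PRDM family pair, showed like excesses. Mecom levels in the LOH were 503 and 500 at P0 and 753, 800 and 790 in the adult, against 144 and 123, then 90.1, 94.3 and 67.7, in the PCT. The log2 fold change was 1.59 ± 0.06 (adjusted p = 2.11e-68) at P0 and 2.75 ± 0.09 (adjusted p = 7.40e-27) in the adult. Prdm16 levels in the LOH were 437 and 399 at P0 and 541, 632 and 698 in the adult, against 103 and 95.1, then 88.2, 82.6 and 71.8, in the PCT. Its log2 fold change was 1.96 ± 0.07 (adjusted p = 4.92e-78) and 2.47 ± 0.10 (adjusted p = 6.77e-24). For Tfap2a, Tfap2b, Mecom and Prdm16, 4 of the 10, the LOH, DCT and CNT levels lay entirely above those of PCT and PST at both stages, as did 12.5% of all windows tested at P0 and 12.8% in the adult.

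Pou3f3, the loop of Henle POU factor, and Sim1 had smaller excesses. Pou3f3 rose by 0.80 ± 0.11 (log2, SE; adjusted p = 1.15e-11) from proximal to distal windows at P0 and by 0.88 ± 0.11 (adjusted p = 1.86e-09) in the adult. Sim1 differed by 0.45 ± 0.07 (adjusted p = 6.01e-08) and 1.19 ± 0.10 (adjusted p = 4.40e-14). Sim2 gave 0.56 ± 0.28 at P0, which did not pass (adjusted p = 0.108), and 1.30 ± 0.21 (adjusted p = 7.72e-07) in the adult.

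The Iroquois genes did not show a distal excess in this comparison, and here the label of the set as distal factors was not met by every gene. Irx1 differed by -0.15 ± 0.23 (adjusted p = 0.658) at P0 and -0.07 ± 0.16 (adjusted p = 0.718) in the adult, and Irx2 by -0.24 ± 0.22 (adjusted p = 0.425) and -0.37 ± 0.19 (adjusted p = 0.0905). Irx3 was proximal-higher, by -1.41 ± 0.17 (adjusted p = 2.22e-13) and -2.21 ± 0.15 (adjusted p = 6.42e-17). Its P0 levels in LOH, DCT and CNT lay wholly below those in PCT and PST, as for 10.9% of all windows, but in the adult, where 9.73% of windows were so ordered, the LOH and PCT levels overlapped. Irx3 values in the PST were 38.8 and 54.3 at P0 and 66.5, 42.4 and 58.4 in the adult, against 25.2 and 30.8, then 30.7, 26.8 and 28.1, in the LOH. When LOH alone was set against PCT alone, Irx1 was LOH-higher by 2.11 at P0 and 3.39 in the adult and Irx2 by 2.04 and 3.56 (log2). After each nucleus was thinned to 1000 open peaks, which leaves few counts, the P0 calls of Irx3 (-0.46, adjusted p = 0.632), Pou3f3 (0.59, adjusted p = 0.295) and Sim1 (0.25, adjusted p = 0.558) were lost in edgeR.

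**Figure D2:**
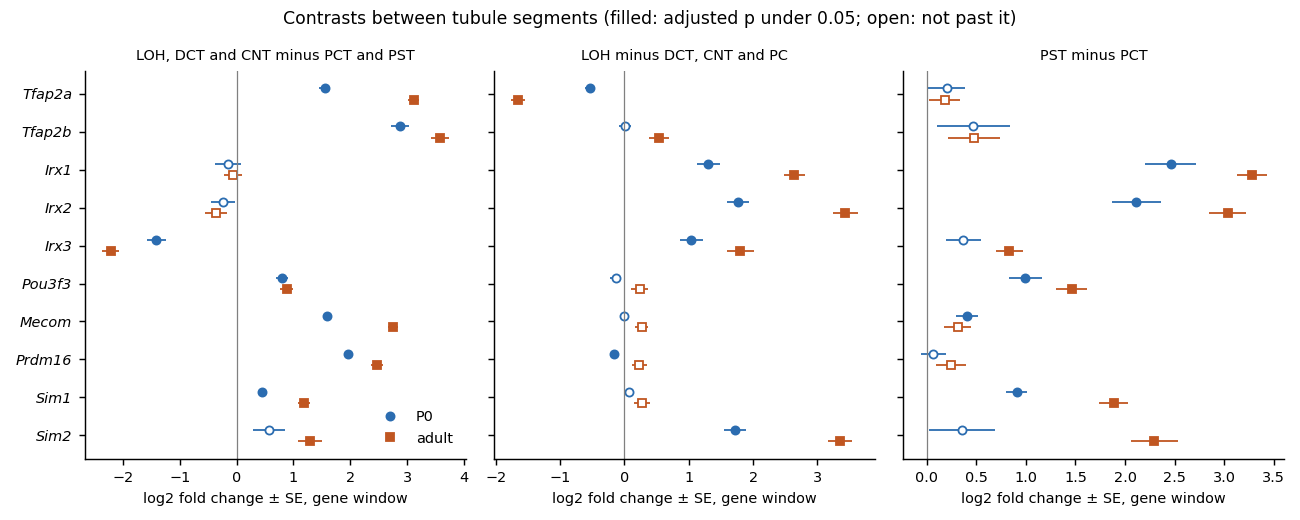
Log2 fold changes (x axis) of the 10 gene windows with SE bars for distal over proximal tubule, LOH over DCT, CNT and PC, and PST over PCT, at P0 (2 samples) and in the adult (3 samples), where filled symbols passed an adjusted p of 0.05. Tfap2b, Tfap2a, Prdm16 and Mecom lead the first panel, Irx1, Irx2 and Sim2 the second, and Irx1 and Irx2 the third.

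Of the 433 peaks, 278 passed the low-count filter at P0 and 108 in the adult. At P0, 99 of the 278 were distal-higher and 23 proximal-higher, 35.6% and 8.27%, against 8.45% and 15.5% of all 174406 peaks tested. In the adult, 83 of the 108 were distal-higher and 14 proximal-higher, 76.9% and 13%, against 36.4% and 30.9% of 59004. Thinning each nucleus to 1000 open peaks left 7 and 1 at P0 and 17 and 6 in the adult. The adult counts became 132 and 27 with 50 nuclei or more per sum and 204 and 44 without the low-count filter. With DESeq2 size factors in place of edgeR's TMM scaling, the median of all adult peaks moved by -0.32 (log2) and the distal-higher share of all adult peak calls from 54.1% to 40.5%, while the peaks of the 10 genes gave 79 distal-higher and 19 proximal-higher. Among the 106 tested at both stages, all 54 called distal-higher at P0 were also distal-higher in the adult, where they made up 65.1% of 83, beside 89.6% and 31.6% over the whole matrix. The proximal-higher calls shared 12 peaks, 80% of the 15 at P0 and 100% of the 12 in the adult, beside 86.8% and 71.1%. A distal Prdm16 peak (chr4:154299600-154300575) was called in opposite directions, at -0.77 ± 0.13 (log2, SE) at P0 and 0.22 ± 0.10 in the adult. Over the whole matrix, 597 of the 57389 peaks tested at both stages were called in opposite directions. The adult value is smaller in size than the -0.32 by which the choice of scaling moved the median of all adult peaks.

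Prdm16 gave 42 distal-higher and 4 proximal-higher of 81 peaks tested at P0, and 28 and 3 of 33 in the adult. Mecom gave 31 and 8 of 101, then 28 and 2 of 32. All calls at the AP-2 genes were distal-higher, with 10 of 17 peaks tested at Tfap2b and 4 of 7 at Tfap2a at P0, and 7 of 7 and 4 of 4 in the adult. Irx3 showed the reverse, with 0 distal-higher and 4 proximal-higher of 10 at P0 and 0 and 5 of 6 in the adult. Of the peaks in the windows, 82 were distal-higher and 7 proximal-higher of 200 tested at P0, and 65 and 3 of 72 in the adult. Of the peaks outside the windows the counts were 17 and 16 of 78, then 18 and 11 of 36, and the difference between these classes of peak was not tested. Of the proximal-higher peaks, 16 of 23 at P0 and 10 of 14 in the adult had a higher mean level per 1000000 open calls in the PST than in the PCT (69.6% and 71.4%), beside 49.4% and 44.7% of all proximal-higher peaks of the matrix.

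**Figure D3:**
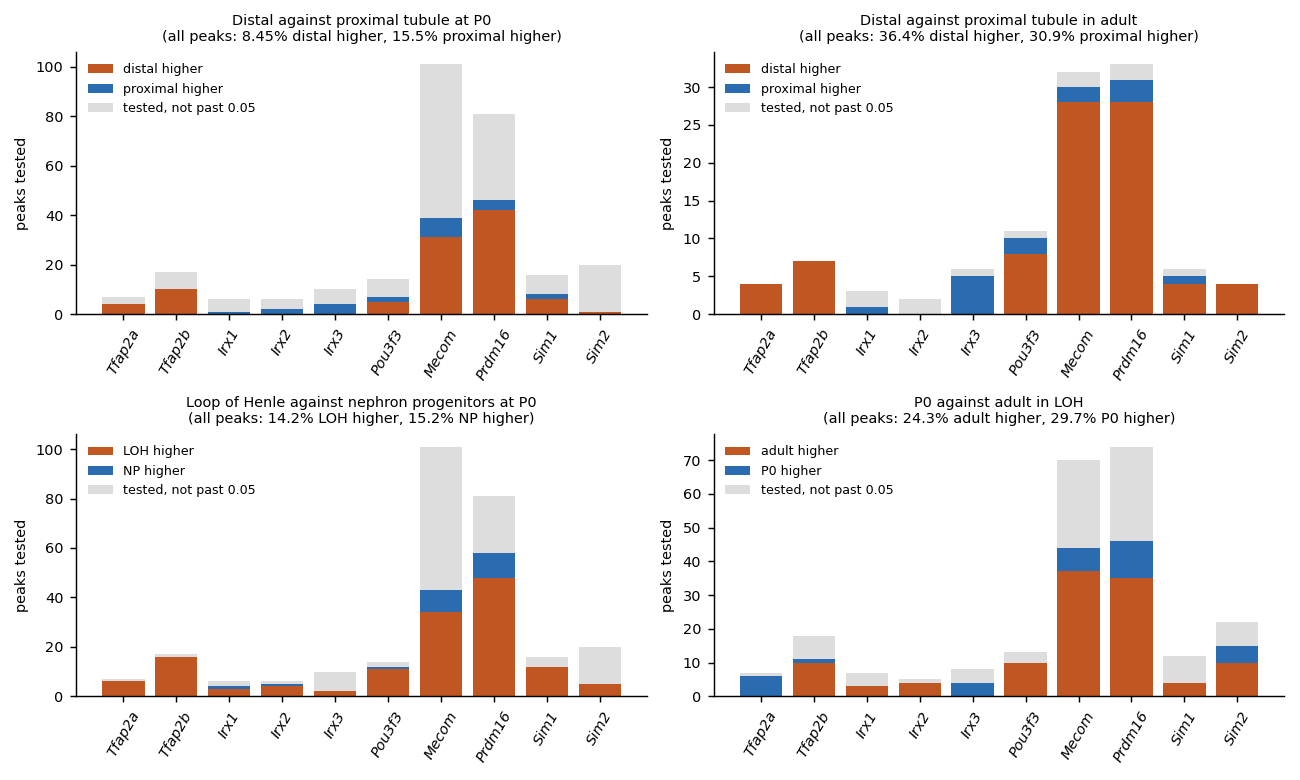
Number of tested peaks of each gene (y axis) that were higher in the first group, higher in the second or not called at an adjusted p of 0.05, in 4 comparisons. Distal-higher calls make up most of the called peaks of Prdm16, Mecom and Tfap2b, and Irx3 has none.

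Shares of nuclei with a peak open, which are not corrected for the depth of each nucleus, show how single elements behaved. The peak 34850 bp upstream of the outermost Prdm16 start (chr4:154671222-154672225) was distal-higher by 4.54 ± 0.19 (log2, SE) at P0 and 5.26 ± 0.16 in the adult. It was open in 25.4% and 29.6% of LOH nuclei at P0 and in 35.3%, 24.3% and 41.3% in the adult. DCT shares were 52.9% and 47.4% at P0, then 22.8%, 19.2% and 34.3%. The test between stages in the DCT, which corrects for depth, gave -0.43 ± 0.23 (log2, SE; edgeR adjusted p = 0.397). No PCT share exceeded 0.566%, PST shares were 1.22% to 4.97% and IC shares 13.6% to 26.8%. Loop of Henle, DCT and CNT shares were therefore far above those of the PCT in every sample, and the PC shares, 4.85% to 16.9%, lay between.

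The Tfap2b intronic peak, 2292 bp into the gene (chr1:19210830-19211582), was distal-higher by 5.15 ± 0.19 (log2, SE) in the adult. It was open in 11.2% and 13.3% of LOH nuclei at P0 and in 19.5%, 8.83% and 27.2% in the adult. Shares were at most 0.731% in the PCT and 3.15% in the PST. The downstream Tfap2b peak, 36305 bp from the start, was open in 20.9% and 24.7% of LOH nuclei and 21.6% and 18.9% of PC nuclei at P0, and in 16.0%, 13.1% and 22.8%, then 12.6%, 16.9% and 23.6%, in the adult. The LOH and PC shares of the downstream peak overlapped at both stages.

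Irx3 had the clearest proximal element, 46445 bp downstream of its start (chr8:91755076-91756168), with a distal against proximal log2 fold change of -5.62 ± 0.39 at P0 and -4.42 ± 0.21 in the adult. Open shares in the PST were 26.5% and 27.7% at P0 and 34.2%, 30.9% and 57.1% in the adult. In the PCT they were 18.8% and 14.7%, then 12.4%, 15.4% and 25.8%, and in the LOH 2.15% or less in every sample. Per 1000000 open calls of the cluster, which corrects for depth, the PST stood at 26.6 and 31.2 at P0 and 56.6, 53.1 and 49.6 in the adult, and the PCT at 25.5 and 24.5, then 21.1, 35.2 and 34.2. The PST lay above the PCT in each sample on this scale, by little in P0 replicate 1.

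**Figure D4:**
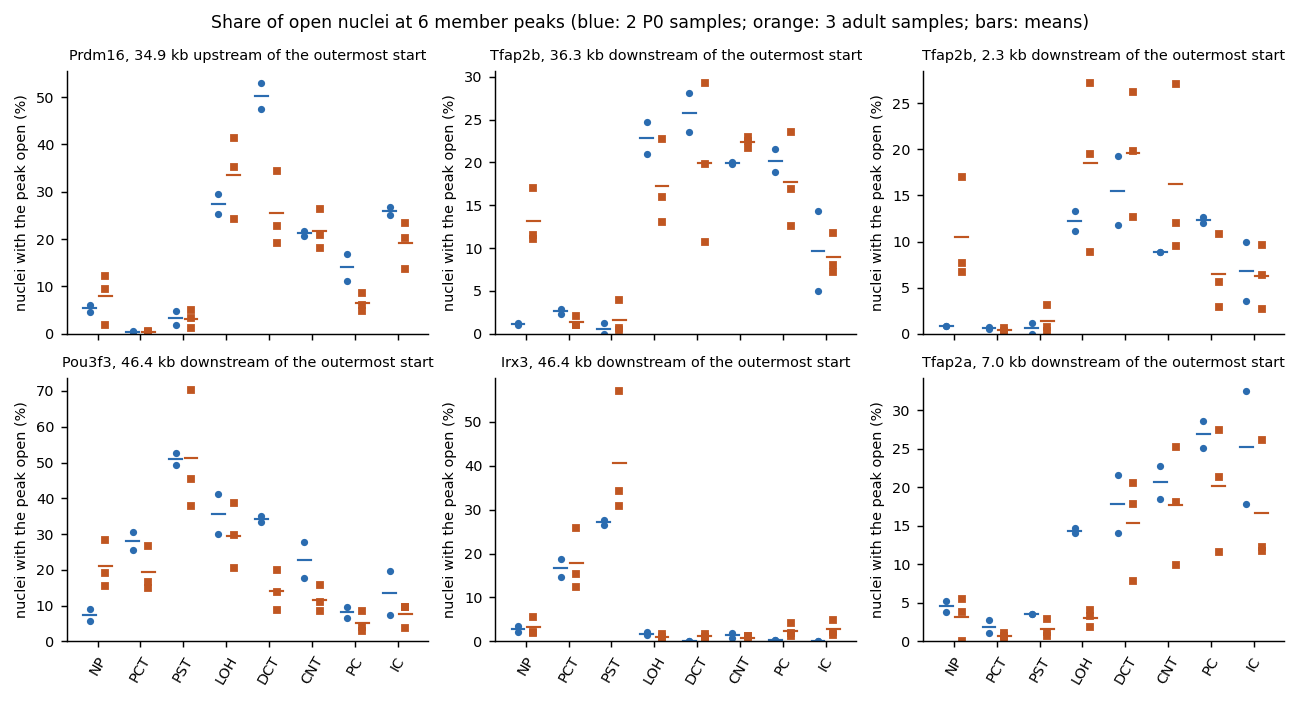
Percent of nuclei with the peak open (y axis) for 6 peaks of the 10 genes in 8 clusters, with a point per sample (blue circles P0, orange squares adult) and bars at group means. The Prdm16 upstream peak is near 0 in PCT and 19.2% to 52.9% in DCT, and the Irx3 downstream peak is open in PST and PCT and 2.15% or lower in LOH.

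The next comparison, added after the data were seen, set the LOH against the mean of DCT, CNT and PC. At P0, 4 windows were LOH-higher (Irx1, Irx2, Irx3 and Sim2) and 2 lower (Tfap2a and Prdm16), against 7.62% and 4.31% of all windows tested. In the adult 5 were higher, the same 4 and Tfap2b, and 1, Tfap2a, was lower, against 10.4% and 8.99%. The calls of Prdm16 at P0 (adjusted p = 0.0932) and Tfap2b in the adult (adjusted p = 0.267) were not made by DESeq2, nor that of Tfap2b without P56 replicate 2 (adjusted p = 0.194). Irx2 was LOH-higher by 1.76 ± 0.17 (log2, SE) at P0 and 3.43 ± 0.19 in the adult, Sim2 by 1.72 ± 0.17 and 3.35 ± 0.19, Irx1 by 1.30 ± 0.18 and 2.64 ± 0.16, and Irx3 by 1.04 ± 0.18 and 1.80 ± 0.21. Tfap2a was LOH-lower by -0.53 ± 0.08 and -1.65 ± 0.11. With thinned nuclei, 2 of the 4 LOH-higher calls at P0 passed in edgeR, while those of Irx3 (log2 fold change 0.0095, adjusted p = 1) and Sim2 (2.89, adjusted p = 0.111) were lost, as were the LOH-lower calls of Tfap2a (-0.25, adjusted p = 0.782) and Prdm16 (-0.035, adjusted p = 0.954).

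Irx2 levels in the LOH were 38.9 and 45.4 at P0 and 100.4, 83.1 and 104 in the adult, against 10.5 and 14.7, then 10.8, 6.61 and 11.4, in the DCT. Sim2 levels in the LOH were 39.4 and 54.4, then 96.0, 94.8 and 120, against 10.5 and 4.91, then 8.09, 7.71 and 11.1, in the DCT. For Irx1, Irx2, Irx3 and Sim2 the LOH levels lay above those of DCT, CNT and PC in every sample of both stages, and those of Tfap2a lay below. Windows not overlapping in this way made up 7.96% (LOH above) and 3.39% (LOH below) of all windows at P0 and 2.85% and 1.76% in the adult, where Mecom was a further one above.

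A like split was seen inside the proximal tubule, in a comparison of PST with PCT also added after the data were seen. At P0, 5 windows were PST-higher and 0 PCT-higher (in edgeR, with 0 also at an unadjusted p under 0.05 and 0 by DESeq2), against 3.91% and 3.48% of all windows, and in the adult 6 and 0, against 18.6% and 16.5%. Irx1 was PST-higher by 2.46 ± 0.25 (log2, SE) at P0 and 3.28 ± 0.15 in the adult, Irx2 by 2.11 ± 0.24 and 3.03 ± 0.18, Pou3f3 by 0.99 ± 0.17 and 1.46 ± 0.15, and Sim1 by 0.91 ± 0.11 and 1.88 ± 0.15. Mecom passed at P0 (0.40 ± 0.11, adjusted p = 0.00880), and Sim2 (2.30 ± 0.24) and Irx3 (0.83 ± 0.14) in the adult. With nuclei thinned to 1000 open peaks, 0 of the 5 P0 calls passed, with Irx1 at 2.01 and Irx2 at 1.19.

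Irx1 levels in the PST were 38.8 and 44.3 at P0 and 49.7, 44.2 and 50.5 in the adult, against 7.92 and 6.88, then 4.27, 4.83 and 5.38, in the PCT. In the LOH they were 35.2 and 35.9, then 65.3, 48.6 and 64.8. The PST was thus above the PCT in every sample, and it led all 13 clusters at P0. In the adult the LOH led in 2 of 3 samples, and LOH and PST levels overlapped. LOH markers summed over their windows were 32.7 and 34.2 in the PST cluster at P0 and 43.5, 36.1 and 51.3 in the adult. In the PCT cluster they were 28.2 and 26.9, then 28.0, 37.4 and 30.3, and in the LOH cluster 116 and 143, then 547, 490 and 562. Median open peaks per nucleus were higher in the PST than in the PCT in every sample, from 5398.5 against 5227 in P21 to 12173 against 7466 in P56 replicate 2. The part of LOH nuclei or of depth in the PST values was not tested. The Pou3f3 downstream peak (chr1:42741648-42742760) stood at 49.7 and 59.4 per 1000000 open calls in the PST at P0 and 75.2, 65.2 and 61.0 in the adult. In the LOH it was at 45.1 and 53.4, then 74.8, 75.0 and 79.6, so that LOH and PST overlapped at both stages.

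Nephron progenitors persist in the newborn kidney, so LOH and NP were compared at P0. The study had already listed Irx1, Irx2, Pou3f3, Mecom and Tfap2b for the loop of Henle lineage of its progenitor trajectories. Those trajectories drew on the same P0 nuclei and on P0 single cell RNA data. The LOH against NP counts of the 10 genes are thus no independent test either. All 10 windows were LOH-higher, against 18.2% of all windows, and 0 were NP-higher, against 21.5% (in edgeR, with 0 also at an unadjusted p under 0.05 and 0 by DESeq2). Pou3f3 differed by 2.32 ± 0.10 (log2, SE), Tfap2b by 2.22 ± 0.10, Sim1 by 1.79 ± 0.07 and Tfap2a by 1.18 ± 0.08. The smallest differences were at Irx3, 0.71 ± 0.13 (adjusted p = 5.39e-07), and Mecom, 0.66 ± 0.05, which was already at 306 and 290 in NP against 503 and 500 in LOH. Pou3f3 levels were 70.6 and 74.4 in LOH and 14.4 and 12.9 in NP. NP markers summed to 129 and 112 in the LOH cluster at P0, against 222 and 225 in the NP cluster, and their part in these differences was not tested. With thinned nuclei Irx3 (0.49, adjusted p = 0.509) and Sim2 (0.53, adjusted p = 0.320) no longer passed in edgeR.

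Among the peaks, 141 of 278 tested were LOH-higher and 22 NP-higher, against 14.2% and 15.2% of all peaks. Sim1 had 12 LOH-higher and 0 NP-higher peaks and Tfap2b 16 and 0. The Sim1 start peak led by adjusted p (1.58 ± 0.07, log2, SE), followed by the downstream Pou3f3 peak (2.12 ± 0.10), open in 30.1% and 41.3% of LOH and 5.72% and 8.96% of NP nuclei. Most NP-higher peaks lay at Prdm16 (10) and Mecom (9), led by a Mecom intronic peak (chr3:30018158-30019280, -1.48 ± 0.15) that also overlaps the antisense gene Mecomos.

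Next, P0 was compared with the adult inside each distal cluster. In the LOH, 8 windows were adult-higher and 1 P0-higher, against 23.6% and 30.3% of all 25692 windows tested. Irx2 rose by 1.25 ± 0.16 (log2, SE; adjusted p = 8.28e-05), Sim2 by 1.22 ± 0.18 (adjusted p = 0.000194), Tfap2b by 0.91 ± 0.18 (adjusted p = 0.00123) and Pou3f3 by 0.85 ± 0.20 (adjusted p = 0.00328). Irx1 (0.81 ± 0.17), Mecom (0.71 ± 0.12), Prdm16 (0.65 ± 0.14) and Sim1 (0.58 ± 0.13) also rose. Tfap2a fell by 0.62 ± 0.18 (adjusted p = 0.0112), a call lost without P0 replicate 1 (adjusted p = 0.176), and that of Sim1 was lost without P0 replicate 2 (adjusted p = 0.0561) and that of Irx1 after thinning (adjusted p = 0.287). Irx3 gave 0.08 ± 0.19 (adjusted p = 0.727). Without a P0 replicate, here and below, 1 P0 sample remained and was assumed to vary like the adult samples. For a single value, 2 samples against 3 cannot reach an exact permutation p below 0.2.

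Marker windows of other cell types moved in the LOH cluster as well. NP markers in it went from 129 and 112 at P0 to 33.9, 42.6 and 21.9, podocyte markers from 110 and 106 to 39.0, 29.6 and 26.5, endothelial markers from 97.2 and 90.5 to 50.5, 26.4 and 38.1 and stromal markers from 78.3 and 75.8 to 30.7, 33.8 and 31.3, while LOH markers went from 116 and 143 to 547, 490 and 562 and DCT markers from 120 and 120 to 196, 238 and 261 (summed window levels). The part of these shifts in the factors' changes was not tested, and stage, perfusion and sample preparation cannot be told apart.

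**Figure D5:**
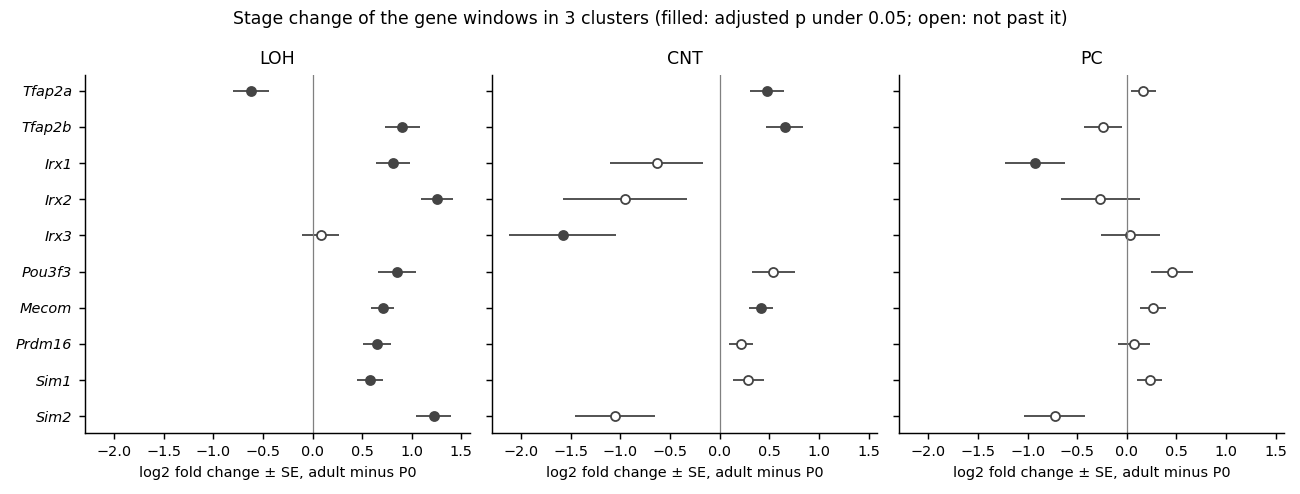
Adult minus P0 log2 fold changes (x axis) of the 10 gene windows with SE bars in LOH, CNT and PC (2 P0 and 3 adult samples), where filled symbols passed an adjusted p of 0.05. In the LOH, Irx2 and Sim2 rose most, by 1.25 and 1.22, and Tfap2a fell, while in the CNT Tfap2a was adult-higher.

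Of 236 peaks tested in the LOH, 113 were adult-higher and 34 P0-higher, 47.9% and 14.4%, against 24.3% and 29.7% of all 89743 peaks. The adult-higher count was 63 without P0 replicate 1 and 68 without P0 replicate 2, and the P0-higher count 22 without P0 replicate 1. Mecom (37 against 7 of 70) and Prdm16 (35 against 11 of 74) carried most of the calls, Pou3f3 had 10 adult-higher and 0 P0-higher of 13, and Tfap2a had 0 and 6 of 7. The leading adult-higher peak, in a Prdm16 intron (chr4:154450166-154451033, 2.72 ± 0.27), opened from 4.41% and 6.44% of LOH nuclei to 14.0%, 12.7% and 22.4%. The leading P0-higher peak lay 56550 bp downstream of the Sim2 start, where it overlaps Hlcs (chr16:94140910-94142052, -4.06 ± 0.57), and went from 8.50% and 8.44% to at most 1.02%. A second Prdm16 intronic peak (chr4:154413808-154414192, -3.54 ± 0.52) went from 7.09% and 6.90% to at most 0.761%, so peaks within Prdm16 moved in opposite directions.

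In the other clusters fewer windows passed. In the CNT, Tfap2b (0.65 ± 0.19, adjusted p = 0.0170), Tfap2a (0.48 ± 0.17, adjusted p = 0.0460) and Mecom (0.42 ± 0.12, adjusted p = 0.0183) were adult-higher and Irx3 lower (-1.58 ± 0.54, adjusted p = 0.0378), against 9.8% and 15.9% of all windows tested. DESeq2 called 0 of these 4, and in edgeR 0 windows passed without P0 replicate 1 and 1 without P0 replicate 2 or P56 replicate 2. Summed marker levels moved in the CNT cluster too, with CNT markers at 232 and 243 at P0 and 1036, 854 and 656 in the adult, DCT markers at 107 and 108, then 519, 396 and 567, and NP markers at 70.6 and 68.0, then 16.3, 33.2 and 21.8, and their part in these changes was not tested. In the PC 0 were adult-higher (0 also at an unadjusted p under 0.05 and by DESeq2) and 1, Irx1, was lower (-0.92 ± 0.30, adjusted p = 0.0310), against 12% and 17.1%. PC markers there stood at 72.8 and 90.4 at P0 and 193, 182 and 250.5 in the adult, and NP markers at 72.4 and 75.4, then 25.8, 32.6 and 21.8, and their part was not tested either. The Irx1 call was lost without either P0 replicate, without P21 or without P56 replicate 2. In the DCT, with 51 and 57 nuclei at P0, 6 windows could be tested and 0 passed in edgeR, against 1.36% and 4.31% of windows, and Tfap2a came nearest (0.49 ± 0.19, adjusted p = 0.163). At an unadjusted p under 0.05, 1 DCT window was adult-higher and 0 P0-higher, and DESeq2 called 0. DESeq2 also left the PC without a call, and thinning or no filter on low counts left it 0 P0-higher windows. A replicate block between P0 and P56 gave the PC 2 adult-higher and 0 P0-higher windows.

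Fewer peaks passed the filter in these smaller clusters. In the DCT 1 of 28 peaks tested was adult-higher, a Mecom intronic peak (chr3:30107939-30108948, 1.24 ± 0.29), and 0 P0-higher (1 at an unadjusted p under 0.05, 0 by DESeq2), against 2.25% and 1.21% of all peaks. No DCT peak was adult-higher in edgeR without either P0 replicate or P56 replicate 2, nor by DESeq2. In the CNT 10 of 66 were adult-higher and 4 P0-higher, against 10.5% and 12.8%, and in the PC 20 and 14 of 97, against 13.6% and 17%. With 1 sample left out these counts ranged from 4 to 17 and from 0 to 6 in the CNT (5 and 0 without P0 replicate 1, 4 and 1 without P0 replicate 2, 17 and 6 without P56 replicate 1, 9 and 1 without P56 replicate 2) and from 7 to 25 and from 3 to 17 in the PC (8 and 4 without P0 replicate 1, 7 and 3 without P0 replicate 2, 10 and 9 without P56 replicate 2). DESeq2 gave 4 and 1 in the CNT and 9 and 8 in the PC, thinned nuclei gave 0 in all 4 counts, and without the filter on low counts the PC gave 0 and 0. The Prdm16 intronic peak at chr4:154450166-154451033 led the adult-higher calls in the LOH, CNT and PC. In the PC it went from 3.05% and 4.86% of nuclei to 11.7%, 12.8% and 21.2%.

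Whether the distal excess itself differed between the stages was tested by an interaction term. The joint fit counted the sums of all clusters, not the samples of each stage, as observations. Its p-values therefore serve to rank features and are no test between independent samples of the stages. The distal against proximal difference was larger in the adult for 4 windows and more proximal for 1, against 10.9% and 13.4% of all 27681 windows tested. The 4 were Tfap2a (1.53 ± 0.16, log2, SE; adjusted p = 1.28e-11), Mecom (1.12 ± 0.12, adjusted p = 2.30e-11), Sim1 (0.70 ± 0.14, adjusted p = 7.85e-05) and Prdm16 (0.47 ± 0.14, adjusted p = 0.00957), and the 1 was Irx3 (-0.84 ± 0.30, adjusted p = 0.0315). Tfap2b, the most distal window at both stages, gave a difference of 0.65 that did not pass (adjusted p = 0.118). Tfap2a levels in the PST were 43.6 and 34.2 at P0 and 13.1, 10.5 and 15.6 in the adult, while DCT levels were 113 and 130, then 205, 143 and 204, with no overlap between the stages in either cluster. Of 217 peaks, 13 were more distal in the adult and 1 more proximal, against 1.85% and 4.2% of all 126753 peaks, and all 14 lay in gene windows. The 13 became 4 without P0 replicate 1, 5 without P0 replicate 2, 24 without P56 replicate 1, 23 with DESeq2 and 1 with thinned nuclei. The share of all called peaks that were more distal in the adult was 30.6% with TMM and 43.9% with size factors, and of all called windows 44.9% and 32.3%. For Irx3 the call was lost without P0 replicate 1 (adjusted p = 0.487), P0 replicate 2 (adjusted p = 0.0512) or P56 replicate 2 (adjusted p = 0.116) and the direction turned when LOH was set against PCT (0.16), and for Prdm16 it was lost without P0 replicate 1 (adjusted p = 0.166) or 2 (adjusted p = 0.202), all in edgeR.

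The same test on the LOH against DCT, CNT and PC, added after the data were seen, found a larger LOH excess in the adult for Irx2 (1.70 ± 0.36, adjusted p = 0.000804), Sim2 (1.66 ± 0.40, adjusted p = 0.00360) and Irx1 (1.36 ± 0.28, adjusted p = 0.000665), against 4.53% of all windows. Tfap2a moved the other way (-1.10 ± 0.14, adjusted p = 5.73e-08), against 4.67%. Irx3 did not pass (0.77, adjusted p = 0.139). With 1 P0 sample left, none of the 3 gains passed in edgeR without P0 replicate 1 and only Sim2 did without P0 replicate 2, and after each nucleus was thinned to 1000 open peaks Irx1 gave -0.57 ± 1.37 and Irx2 -1.22 ± 1.67, with few counts left. Of 217 peaks tested, 17 gained LOH excess in the adult and 5 lost it, 7.83% and 2.3%, against 1.26% and 1.28% of all peaks, and 4 of the 5 lay at Tfap2a. These counts were 2 and 1 without P0 replicate 1 and 5 and 2 without P0 replicate 2. At its inner start, 7039 bp from the outermost one, Tfap2a was open in 14.6% and 14.1% of LOH nuclei at P0 and 3.30%, 1.82% and 4.09% in the adult, while PC shares were 25.1% and 28.6%, then 21.4%, 11.7% and 27.4%.

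The cluster with the highest mean share of open nuclei, not corrected for depth, was counted for each peak of the 10 genes, as a description. At P0 the DCT had the highest mean share for 72 of the 433 (16.6%, against 8.15% of all 300755), followed by the IC for 56 (12.9% against 10.6%), the PC for 53 (12.2% against 6.88%), the PST for 51 (11.8% against 15.6%), the Endo for 39 (9.01% against 10.2%) and the LOH for 38 (8.78% against 2.72%). In the adult the NP cluster, which went against its label, and the PC led 57 each (13.2%, against 10.5% and 7.91% of all), the IC 55 (12.7% against 7.93%), the LOH 52 (12% against 2.26%), the PST 50 (11.5% against 18.2%) and the CNT 45 (10.4% against 5.16%). Within the central 300 bases of peaks not over a gene start, the AP-2 motif, GCCNNNGGC, which reads the same on both strands, occurred in 12.7% of 403 peaks of the 10 genes and 7.75% of 278335 such peaks of the whole matrix. It was in 23.3% of 86 of the P0 distal-higher peaks of these genes, beside 12.2% of the 12841 P0 distal-higher peaks of the whole matrix, and their median GC content was 51.17% and 49%. On either strand, the estrogen-related receptor motif, TCAAGGTCA, was in 3.49% of the 86 and 0.886% of all such peaks, the HNF4 motif, CAAAGTCCA, in 10% of the 20 P0 proximal-higher peaks and 0.824% of all, the Iroquois motif, ACANNTGT, in 9.18% of the 403 and 11.5% of all, and the POU octamer, ATGCAAAT, in 0.248% and 1.79%. In all, 10 motifs were searched and not all are given here, and the 3.49% of 86 and 10% of 20 rest on few peaks. These are matches of letters and do not show binding.

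Genes with the most similar window profiles were ranked by Pearson's r over 26 stage and cluster means among 22870 genes, a description in which points share libraries and depth. Irx1 and Irx2, whose windows lie 661 kb apart, had r = 0.9084, and each was among the 2 most similar to the other. Mecom and Prdm16, on different chromosomes, had r = 0.9149, and Prdm16 was the first match of Mecom. Sim1 was most like the epithelial adhesion gene Epcam (r = 0.9587) and the claudin gene Cldn3 (r = 0.9477), and Tfap2a like Pomgnt1 (r = 0.9058) and the ammonium transporter gene Rhcg (r = 0.9009). Pou3f3 was most like Pantr2 (r = 0.9691), 4 kb away. The lowest value within the set was -0.479, between Tfap2a and Irx3.

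Other genes of the same biology give a scale. Of 22 other distal and duct factors, 9 windows were distal-higher and 9 proximal-higher at P0, and 9 and 7 in the adult, with medians of 0.01 and 0.18 (log2). Gata3 (1.99 ± 0.11, SE), a duct factor, and Grhl2 (1.35 ± 0.09), a regulator of epithelial junction genes, were distal-higher at P0, whereas Pax8 (-1.01 ± 0.07) was proximal-higher. Of 20 transport and other genes of the distal segments, 12 and 2 were called at P0 and 17 and 1 in the adult (medians 0.52 and 1.38), among them the potassium channel gene Kcnj1 (3.50 ± 0.18 at P0). Of 9 proximal tubule factors, 1 and 8 were called at both stages, led at P0 by Hnf4a (-3.29 ± 0.09). Of 9 paralogs of the 10 genes, 1 and 1 were called at P0. In the LOH 0 of these 9 were adult-higher and 8 P0-higher, with a median of -2.03, beside 8 and 1 of the 10 genes (median 0.76), 14 and 4 of the 20 segment genes (0.83), 9 and 7 of the 22 factors (0.15), 3 and 1 of the 9 proximal factors (0.25), and 23.6% and 30.3% of all windows with a median of -0.05. Only 2 of the 9 paralog windows passed the low-count filter in the adult cluster fit. All 9 passed between stages in the LOH, where counts in the 2 P0 samples suffice. Paralog windows can thus enter that fit through P0 alone, so their P0-higher calls are no scale for the 10 genes. In the LOH against NP at P0, 17 of the 22 factors, 13 of the 20 segment genes, 6 of the 9 proximal factors and 1 of the 9 paralogs were LOH-higher, and 2, 4, 1 and 2 were NP-higher, against 18.2% and 21.5% of all windows.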

How the data were processed

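Single nucleus ATAC-seq was measured in 5 mouse kidney samples. The authors processed reads with Cell Ranger ATAC 1.1.0 and called peaks with MACS2 on mm10, and they deposited a matrix of counts that score each peak as open or not in each nucleus, with cluster names per nucleus. Peaks were assigned with GENCODE M21 on GRCm38.p6. The 10 genes and the gene lists were chosen with earlier results of these data known.

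Open calls were summed over nuclei per sample and cluster, keeping sums of 20 nuclei or more. Sums were fitted with edgeR 4.0.16 in R 4.3.3 by the quasi-likelihood test, with TMM scaling, a minimum count of 10, a minimum total of 15, 1 common dispersion from the 5% most abundant features, and Benjamini-Hochberg adjustment at 0.05 over all features tested. Sample was a block between clusters and a design of 2 against 3 samples was used between stages. Scripts were tested on simulated data. Named peaks were, per gene, the start peak and the most open body and distal peaks, and per comparison up to 3 in each direction with the smallest adjusted p. Similar genes were the 2 with the highest Pearson's r, leaving out overlapping windows. Nuclei are not replicates. Motifs were searched in the central 300 bases of 300693 peaks. Alternatives were DESeq2 1.42.0 and its size factors, no filter, 50 nuclei, thinning to 1000 open peaks, a distal limit of 20 kb, another block, LOH against PCT, and each sample left out. Beside 8 planned comparisons, 5 were added after the data were seen. The stage test was also fitted, unplanned and without alternatives, in the 9 other clusters. At most 7 of the 10 windows were called there, in the NP cluster, whose adult nuclei went against its label. The Pou3f3 start peak was adult-higher in Endo (2.20 ± 0.65, log2, SE) and in the stromal clusters Stroma1 (1.77 ± 0.50) and Stroma2 (1.27 ± 0.43). It was not called in the IC (0.28 ± 0.25), and in the PCT and PST 0 of the 10 windows were adult-higher. Adult-higher calls at Pou3f3 were thus not particular to the LOH. Beyond this the 9 fits are not described. Depth per sample was 16980853 to 43794155 open calls. Expression was not analysed here.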

Additional observations from a re-analysis of the deposited data

Results flagged for a closer look

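The windows and peaks below differed in their effect between the adult and P0 by an interaction term in edgeR's quasi-likelihood test (adult minus P0, log2). The p-values behind these calls serve to rank features. For distal against proximal tubule the windows were Tfap2a (1.53), Mecom (1.12), Sim1 (0.70), Prdm16 (0.47) and Irx3 (-0.84). The peaks were a Tfap2a exonic peak at chr13:40722704-40723594 (2.02), Mecom intronic peaks at chr3:30322994-30323432 (6.09) and chr3:30157249-30157726 (4.82) and the Irx3 start peak at chr8:91801519-91802564 (-1.07). The Tfap2a exonic peak was open in 32.5% and 25.0% of PST nuclei at P0 and in 5.64%, 2.44% and 10.9% in the adult. Some sums behind the Mecom peaks held few or no open calls, so their fitted values depend on the prior count and are no bound.

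For LOH against DCT, CNT and PC the windows were Irx2 (1.70), Sim2 (1.66), Irx1 (1.36) and Tfap2a (-1.10). The peaks were the upstream Prdm16 peak (1.25), a Mecom intronic peak at chr3:30226537-30227464 (2.15), the Irx1 start peak (2.11) and Tfap2a peaks at 3 of its annotated starts, the inner one (-1.58), the outermost (-1.54) and one between them (-1.62). No group held 4 or more samples, so single samples were not tested for standing apart.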

How the results depend on the processing

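Nuclei with few open peaks and only 2 P0 samples set the main limits, and none of these alternatives was compared with gene expression. Counts below are windows or peaks of the 10 genes called under each alternative, and the cause of each shift was not tested unless fewer features or samples were used. With DESeq2 size factors, 44 of 44 counts stayed within 1.5 times. With DESeq2, 31 of 44 did. The 44 leave out peak counts of the cluster comparisons added later, and some of these moved with size factors at P0. For LOH against DCT, CNT and PC, 30 LOH-higher and 6 LOH-lower peaks became 14 and 8. For PST against PCT, 7 PST-higher and 2 PCT-higher peaks became 9 and 0. Over all peaks, the PST against PCT calls went from 793 and 6372 to 826 and 317.

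With DESeq2 the stage-dependent distal excess gave 23 peaks larger in the adult and 2 at P0, the LOH was lower than DCT, CNT and PC at P0 for 1 window, the LOH gave 68 adult-higher and 16 P0-higher peaks, the CNT 4 and 1 peaks and 0 and 0 windows, the PC 9 and 8 peaks and 0 P0-higher windows, and the DCT 0 adult-higher peaks. Without the filter on low counts, the adult gave 204 distal-higher and 44 proximal-higher peaks, the distal excess 2 peaks larger at P0, the LOH excess over DCT, CNT and PC 7 peaks larger in the adult, NP 36 peaks higher than LOH, the DCT 1 window and 2 peaks adult-higher, and the PC 0 P0-higher windows and 0 peaks either way. With 50 nuclei or more per sum the adult gave 132 distal-higher and 27 proximal-higher peaks. With distal peaks limited to 20 kb, 14 proximal-higher peaks were left at P0 and 6 in the adult.

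With LOH alone against PCT alone, 157 peaks were distal-higher at P0, 9 peaks and 0 windows proximal-higher in the adult, and 30 peaks and 9 windows more distal and 7 peaks and 0 windows more proximal in the adult. Under that choice Irx1 gave 2.11 at P0 and 3.39 in the adult, Irx2 2.04 and 3.56, and the stage difference of Irx3 0.16 (log2), each opposite in sign to the values above.

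Thinning each nucleus to 1000 open peaks removed most counts. It left 7 distal-higher and 1 proximal-higher peaks and 0 proximal-higher windows at P0, 17 and 6 peaks in the adult, 18 LOH-higher and 0 NP-higher peaks, 1 and 0 peaks for the stage-dependent distal excess, 16 adult-higher and 4 P0-higher peaks in the LOH, and 0 and 0 peaks in the CNT and PC. It also left 0 adult-higher peaks in the DCT, 0 and 0 windows in the CNT, 0 P0-higher windows in the PC, 2 LOH-higher and 0 LOH-lower windows at P0, 1 window and 0 and 0 peaks for the stage-dependent LOH excess, and 0 PST-higher windows at P0. Thinned values turned in sign for Sim2 at P0 (-0.85) and for the stage-dependent LOH excess of Irx1 (-0.57) and Irx2 (-1.22), with no call.

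The P0 and P56 samples share replicate numbers. Their deviations correlated at r = 0.156 in the LOH, 0.080 in the DCT, 0.107 in the CNT and 0.059 in the PC. With only 2 pairs this cannot show whether samples with the same number were also prepared together. With a replicate block between P0 and P56, the DCT gave 3 adult-higher and 1 P0-higher peaks and the PC 2 adult-higher and 0 P0-higher windows, and the other 12 counts stayed within 1.5 times. With no replicate block between clusters, the stage-dependent distal excess gave 8 and 0 peaks and 0 windows larger at P0, the LOH at P0 was lower for 1 window, and the stage-dependent LOH excess gave 5 and 3 peaks.

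Leaving out a P0 sample between stages left 1, which was assumed to vary like the adult samples. With each sample left out in turn, the adult distal-higher and proximal-higher windows stayed at 7 and 1. Proximal-higher adult peaks ranged from 14 to 24 (24 without P21). The stage-dependent distal excess ranged from 4 to 24 peaks larger in the adult (4 and 5 without P0 replicates 1 and 2, 24 without P56 replicate 1), from 0 to 2 peaks larger at P0 and from 0 to 1 windows larger at P0. Adult-higher LOH peaks ranged from 63 to 112, P0-higher ones from 22 to 33 and P0-higher LOH windows from 0 to 1, lowest without P0 replicate 1 in each case. In the DCT the ranges were 0 to 3 adult-higher peaks, 0 to 1 P0-higher peaks and 0 to 1 adult-higher windows. In the CNT they were 4 to 17 adult-higher peaks (4 without P0 replicate 2, 5 without P0 replicate 1, 17 without P56 replicate 1), 0 to 6 P0-higher peaks, 0 to 5 adult-higher windows (0 without P0 replicate 1, 5 without P56 replicate 1) and 0 to 2 P0-higher windows. In the PC they were 7 to 25 and 3 to 17 peaks (7 and 3 without P0 replicate 2, 8 and 4 without P0 replicate 1, 10 and 9 without P56 replicate 2) and 0 to 1 windows in either direction. The stage-dependent LOH excess ranged from 2 to 15 peaks larger in the adult, from 1 to 5 larger at P0 and from 0 to 7 windows larger in the adult (0 without P0 replicate 1, 1 without P0 replicate 2, 5 without P56 replicate 1, 7 without P21). Uncalled values spanned 0 for Irx1 in the adult, from -0.18 to 0.16 (the latter without P56 replicate 2), and for Irx3 between stages in the LOH, from -0.010 (without P0 replicate 1) to 0.22. Between clusters at P0, leaving out 1 of the 2 samples left no residual degrees of freedom, so no test was made, and Irx2 there ranged from -0.58 to 0.11.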
